A study of Mus musculus with 8 samples.

Results

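Venus-positive cells without SSEA-1 (V+S-) were compared with Venus-negative cells without SSEA-1 (V-S-), both sorted from cultures of mouse ES cells. The comparison used 4 of the 8 array samples of the study, 1 sample of each fraction from each of 2 HV clones, 5.1 and 16.1. The samples were taken by their sort labels, and the comparison was paired by clone. HV cells are 129/Ola mouse ES cells with a knock-in at Hex, in which a Hex cDNA with a BirA recognition tag is followed by an IRES built from Gtx elements and by the fluorescent protein Venus, in a line that also carries R26BirA. All fractions shared this modification, and each clone is 1 targeted line from which the selection cassette had been removed. Both clones were plated at 200000 cells per ml, grown for 24 h under self-renewing conditions with LIF, and sorted by flow cytometry on Venus and SSEA-1. The remaining 4 samples were the SSEA-1-positive fractions with Venus (V+S+) and without it (V-S+) from the same 2 clones. The labels do not say that the clones were cultured on separate occasions, so p-values measure the spread between these samples. In sorted bulk cells, fewer cells of a type and less RNA per cell cannot be told apart.

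Hex (Hhex) is a homeobox factor of the primitive endoderm (PrEn), the extra-embryonic layer that separates from the epiblast in the blastocyst and makes basement membrane of laminin and type IV collagen. PrEn fate depends on FGF signalling through ERK and on the GATA factors, and Nanog opposes it. SSEA-1 is a carbohydrate antigen of undifferentiated mouse ES cells that is lost on differentiation. Both fractions compared here lacked that marker, and Venus was the property that separated them. The paper treats V+S- as differentiated PrEn and holds that V-S- kept a significant share of undifferentiated ES cells. No probe could be named Hhex, Gata4, Hnf4a, Pdgfra, Klf4, Zfp42 or Id3 from the shortened list of names used here, so the transcript of the reporter locus is not analysed here and the sort was not checked against it.

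The arrays carried 42006 distinct probes of 60 bases. The median Cy3 signal was 2.86 and 2.87 times the local background in V+S- of clones 5.1 and 16.1 and 2.36 and 2.55 times in V-S-, so that this ratio moved with the fraction, and its part in the results was not tested. Between 28316 and 29671 probes per sample were well above background, and no spot was saturated. Every array held a sample in Cy3 against a common mouse reference RNA in Cy5, and expression is given as the ratio of Cy3 to Cy5 on a log2 scale, so levels are compared between samples and never between genes. Where a pair of values is given for a fraction, the first is of clone 5.1 and the second of clone 16.1, and ± gives the SE of the fit over 2 clones per fraction. All 4 fractions of a clone shared a slide of their own, so that clone and slide cannot be told apart. Names come from the study's list of genes that differed among the fractions, in the copy used here, which was cut short and paired 1997 tested probes with a symbol, so that a gene without a named probe may be on the array or in the missing rows. Those genes were selected on these same samples, and their counts are no independent evidence of a direction.

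The first 30 of the 60 bases of 6 probes are printed, as those that measured the PrEn, matrix and pluripotency genes on which the account below turns. Each line gives the gene and the probe sequence as deposited.
Sox7: agtcccggatggatattaataatctcgtga
Dab2: tcattttcctgtctaggctaaagctaaact
Thbs1: cttaaaactactgttgtgtctaaaaagtcg
Nanog: tcttagaagcgtgggtcttggtatacactg
Pou5f1: ggcccggaagagaaagcgaactagcattga
Dppa3: taacctttaaattgtagataggatgcacaa

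Rises outnumbered falls in V+S- cells. Of 29484 probes tested with clone as a block, 2642 were higher (8.96%) and 980 were lower (3.32%) at an adjusted p of at most 0.05 and a change of more than 1.5-fold, so that 72.9% of the calls were rises. The rises were also larger. Their median log2 difference was 0.86, with 934 probes over 2-fold and 19 over 4-fold higher, whereas the falls had a median of -0.74, with 120 probes over 2-fold and 0 over 4-fold lower. The median over all probes was 0.01 and the median standard error (SE) of a difference was 0.07. The balance of rises and falls depended on scaling. Rises made up 60.4% of calls on scanner-processed signals, 58.0% where Cy3 was used without the reference, and 92.5% under median centring, which also moved the median of all probes to 0.13. The count of falls also rested on clone 16.1, with 437 left without its V-S- sample and 529 without its V+S- sample, while the count of rises stayed between 2322 and 2964 with any of the 8 samples left out. Of the probes with a name, 1119 were higher (56.0%), 343 were lower (17.2%) and 535 were not called, and these shares are the background for the gene groups below.

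**Figure D1:**
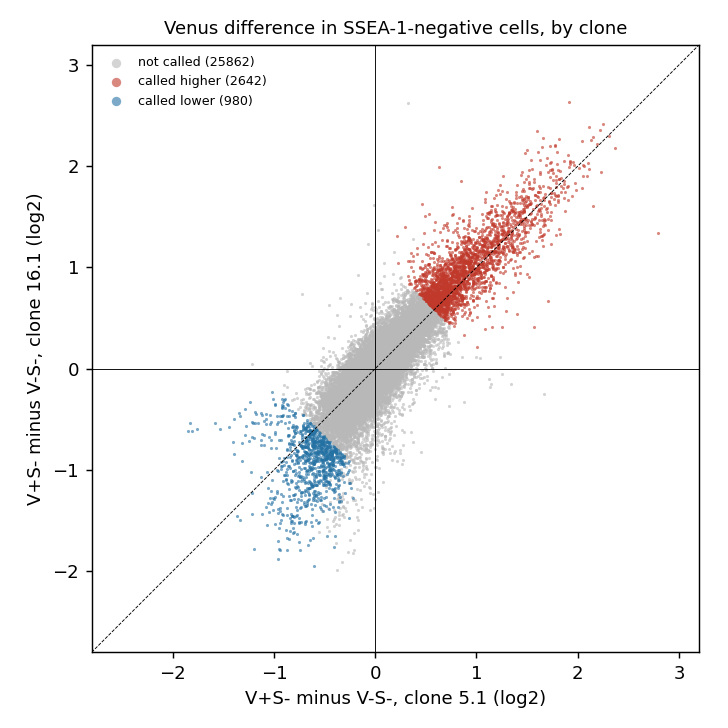
Each point is 1 of 29484 probes, with its log2 difference between V+S- and V-S- in clone 5.1 (x axis) and in clone 16.1 (y axis). Red marks the 2642 probes called higher and blue the 980 called lower; the dashed line is equality, and the called falls lie mostly below it.

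The 2 clones, each a pair of arrays of its own, gave like differences across probes (Pearson r 0.879, Spearman rho 0.837, as a description over probes, which are not independent). No called probe moved in opposite directions in the clones. A call itself needs a mean difference over 1.5-fold and favours clones that are alike, so this is no separate evidence of agreement. In both clones the difference was over 1.5-fold for 2168 of the 2642 higher probes and for 470 of the 980 lower probes, counts that rest on the same rule. Taken in 1 clone and read in the other, the 860 probes over 2-fold higher in clone 5.1 had a median log2 difference of 1.31 in clone 16.1, and 98.0% of them were over 1.5-fold higher there, against 10.2% of all probes. The 69 probes over 2-fold lower in clone 5.1 had a median of -0.67 in clone 16.1, where 60.9% were over 1.5-fold lower, against 5.49% of all probes. In the other direction, the 1101 probes over 2-fold higher in clone 16.1 had a median of 1.15 in clone 5.1, with 96.0% over 1.5-fold higher against 8.30% of all probes, and the 425 probes over 2-fold lower in clone 16.1 had a median of -0.56 in clone 5.1, with 47.3% over 1.5-fold lower against 2.26% of all probes. By these shares the falls were less even between clones than the rises. Of the 980 probes called lower, 806 (82.2%) fell further in clone 16.1, with medians of -0.62 in clone 5.1 and -0.87 in clone 16.1. Of the 2642 called higher, 1828 (69.2%) rose further in clone 16.1, with medians of 0.82 and 0.93. Over all probes the difference was the higher one in clone 16.1 for 50.2%. The SD of the log2 difference over probes was 0.38 in clone 5.1 and 0.45 in clone 16.1.

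PrEn genes were higher in V+S- cells. Of 12 named members of the PrEn list, 11 rose, 0 fell and 1 did not pass the test, with a median log2 difference of 1.31 against 0.69 over all named probes and 0.01 over all probes. Sox7, a SOX factor of the extra-embryonic endoderm, had log2 ratios of -0.31 and -0.20 in V-S- cells and 1.23 and 1.78 in V+S- cells. Its level rose by 1.76 ± 0.14 (SE, log2; adjusted p = 0.00029), 3.39-fold. Lrp2 (megalin), an endocytic receptor of the visceral endoderm, stood at 1.19 and 1.54 in V-S- cells and 2.85 and 3.00 in V+S- cells, a rise of 1.56 ± 0.12 (adjusted p = 0.00028). For either gene both V+S- values lay above both V-S- values, a separation that was not counted over all probes. Dab2, an endocytic adaptor of the PrEn, stood at -2.55 and -2.45 in V-S- cells and -1.46 and -1.58 in V+S- cells, and rose by 0.98 ± 0.11 (adjusted p = 0.00097). Gata6, which can by itself drive ES cells towards PrEn, had the smallest called rise of the list, 0.76 ± 0.11 (adjusted p = 0.0022). Its log2 ratios were -2.43 and -2.56 in V-S- cells and -1.504 and -1.98 in V+S- cells. The Gata6 probe was dim, with mean log2 Cy3 levels of 6.62 in V-S- and 7.33 in V+S- cells, against a median of 8.75 over all probes. The Gata6 call was lost in 2 of 20 alternatives, a linear model with no moderation and a fit leaving out clone 5.1 V+S- cells. Over all 20 its log2 difference ranged from 0.56 to 1.63. Foxq1, a forkhead factor, rose by 1.496 ± 0.11 and Col4a1, a chain of type IV collagen, by 1.36 ± 0.13. Afp, a secreted protein of the visceral endoderm, was at 0.57 ± 0.08 (adjusted p = 0.002), under 1.5-fold, but passed in 7 of 20 alternatives, with a range of 0.48 to 1.46. The Afp probe was dim too, at Cy3 levels of 6.58 and 7.08 in V-S- and V+S- cells. Over the 12 genes the mean log2 ratio was -1.47 and -1.36 in V-S- cells of clones 5.1 and 16.1 and -0.26 and -0.15 in V+S- cells.

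**Figure D2:**
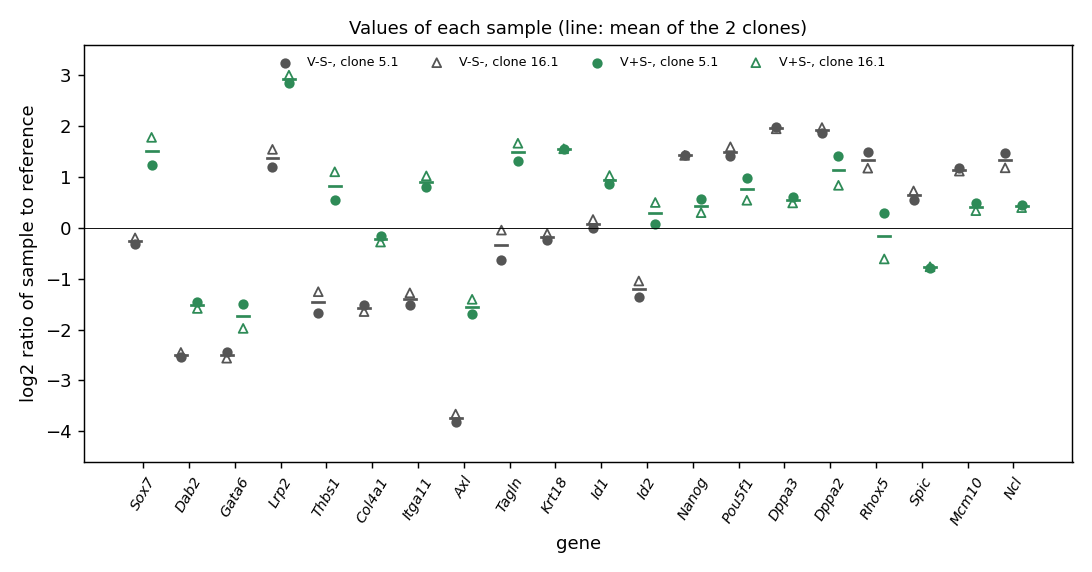
The log2 ratio to the reference (y axis) of 20 genes in the V-S- (grey) and V+S- (green) samples of clone 5.1 (circles) and clone 16.1 (triangles); short lines are means of the 2 clones. All genes drawn were chosen from those called, with Sox7 to Id2 higher and Nanog to Ncl lower in V+S- cells. Their separation is thus no result of its own, and ratios of different genes cannot be compared.

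Pluripotency genes were lower. Of 8 named members, 6 fell, 0 rose and 2 did not pass the test, with a median of -0.73. Nanog, the homeobox factor that holds ES cells in the undifferentiated state, stood at 1.44 and 1.42 in V-S- cells and 0.56 and 0.30 in V+S- cells, and fell by 1.00 ± 0.15 (adjusted p = 0.0029). Dppa3 (Stella), a marker of the early inner cell mass and germ cells, stood at 1.97 and 1.95 in V-S- cells and 0.61 and 0.49 in V+S- cells and fell by 1.41 ± 0.18 (adjusted p = 0.0015). Its values were nearly alike in the clones in either fraction. Pou5f1 (Oct4), the POU factor required for pluripotency, stood at 1.40 and 1.59 in V-S- cells and 0.97 and 0.54 in V+S- cells. Its fall of 0.74 ± 0.17 (adjusted p = 0.012) was uneven, with log2 differences of -0.43 in clone 5.1 and -1.05 in clone 16.1, and the call was lost in 7 of 20 alternatives. Dppa2, a chromatin-associated ES cell protein, fell by 0.79 ± 0.19 (adjusted p = 0.016), again unevenly, with -0.44 in clone 5.1 and -1.14 in clone 16.1, and its call was lost in 6 of 20 alternatives. Tdgf1, a Nodal co-receptor, fell by 0.63 ± 0.07 (adjusted p = 0.00068), and its own range over the alternatives was not taken. Gdf3, a TGF-β ligand, and Sall4, a zinc finger factor, were at -0.50 ± 0.07 and -0.53 ± 0.07, under 1.5-fold. With median centring 2 of the 8 genes passed the test, and without the block 3 did. All 8 were lower in both clones, but named genes were selected on these samples and no such share was taken over all probes.

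Id1 and Id2, inhibitors of differentiation that bind bHLH factors and keep them from DNA, were higher. Id1 stood at -0.01 and 0.16 in V-S- cells and 0.85 and 1.03 in V+S- cells, a rise of 0.86 ± 0.10 (adjusted p = 0.00085). Id2 stood at -1.35 and -1.04 in V-S- cells and 0.07 and 0.50 in V+S- cells, a rise of 1.48 ± 0.11 (adjusted p = 0.00025).

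**Figure D3:**
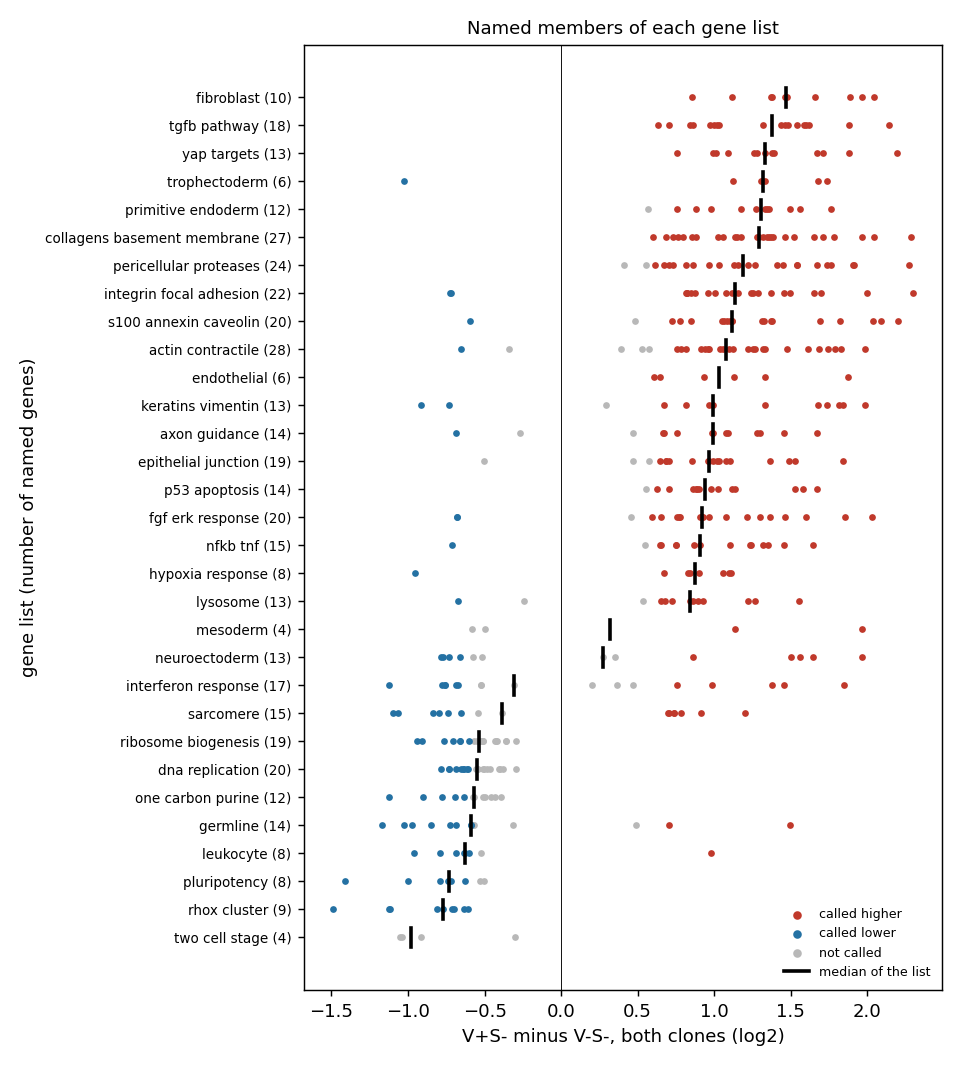
Log2 difference between V+S- and V-S- (x axis, both clones) of the named members of 31 gene lists (y axis, number of named genes in brackets). Red marks genes called higher, blue genes called lower, grey genes not called, and the black bar the median of the list, which runs from -0.98 for the 2-cell-stage list to 1.47 for the fibroblast list.

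Genes of the extracellular matrix and its receptors were higher and included several of the largest rises. All 27 named collagen and basement membrane genes were higher, with a median of 1.29. Thbs1 (thrombospondin 1), a matrix protein that activates latent TGF-β, stood at -1.67 and -1.25 in V-S- cells and 0.55 and 1.101 in V+S- cells, 4.88-fold higher (2.29 ± 0.08, adjusted p = 0.00019). Postn (periostin) stood at -3.28 and -3.08 in V-S- cells and -1.47 and -0.81 in V+S- cells and rose by 2.04 ± 0.12. Col1a2, a chain of type I collagen, rose by 1.97 ± 0.15 and Col8a1, a short-chain collagen, by 1.78 ± 0.10. Of 22 integrin and focal adhesion genes, 20 rose and 2 fell, with a median of 1.14. Itga11, a collagen-binding integrin chain, stood at -1.51 and -1.28 in V-S- cells and 0.80 and 1.02 in V+S- cells and was 4.93-fold higher (2.30 ± 0.10, adjusted p = 0.00019). Its gain was alike in the clones, 2.31 in clone 5.1 and 2.30 in clone 16.1. Fhl2 and Lpp, LIM proteins of adhesion sites, rose by 2.00 ± 0.07 and 1.70 ± 0.08, and Tgfb1i1 (Hic-5), a paxillin relative, by 1.65 ± 0.11. Tns3 (tensin 3) and Tln2 (talin 2) went the other way, falling by 0.72 ± 0.13 and 0.73 ± 0.12, with either call lost in 3 of 20 alternatives.

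Of 28 actin and contractile genes, 23 rose, 1 fell and 4 did not pass the test, with a median of 1.08. Gsn (gelsolin), which severs actin filaments, stood at -2.66 and -2.66 in V-S- cells and -0.74 and -0.61 in V+S- cells and rose by 1.99 ± 0.10. Tagln (SM22), a smooth muscle actin-binding protein, stood at -0.63 and -0.04 in V-S- cells and 1.32 and 1.66 in V+S- cells and rose by 1.83 ± 0.12. Cald1 (caldesmon) and Acta2 (smooth muscle α-actin) rose by 1.79 ± 0.10 and 1.75 ± 0.15. Lima1, a LIM protein of actin filaments, was the gene that fell, by 0.66 ± 0.18, a call lost in 8 of 20 alternatives, and Daam1, Dstn, Arpc1b and Myh14 were at 0.58 ± 0.08, 0.53 ± 0.06, 0.39 ± 0.05 and -0.34 ± 0.12. Among keratins and other intermediate filament genes, 10 of 13 rose, 2 fell and 1 did not pass. Vim (vimentin), the filament of mesenchymal cells, stood at -3.98 and -3.64 in V-S- cells and -2.20 and -1.43 in V+S- cells, a rise of 1.99 ± 0.12. Krt18 and Krt19, keratins of simple epithelia, rose by 1.74 ± 0.08 and 1.82 ± 0.08, and Dsp (desmoplakin), which ties keratins to desmosomes, by 1.84 ± 0.10. Krt23 fell by 0.91 ± 0.09, with a range over 19 alternatives of -2.03 to -0.84. Nefh fell by 0.73 ± 0.13, a call lost in 3 of 20 alternatives, and Krt15 was at 0.29 ± 0.06. Cell junction genes of epithelia rose in 16 of 19 cases with a median of 0.97. They were led by Dsp, Perp (1.53 ± 0.11) and Dsc2 (1.49 ± 0.11), while Prss8, Cldn3 and Cdh3 (P-cadherin) were at 0.58 ± 0.06, 0.47 ± 0.09 and -0.50 ± 0.08 and did not pass. Of 20 S100, annexin and caveolin genes, 18 rose, 1 fell (S100a14, by 0.59 ± 0.10, a call lost in 6 of 20 alternatives) and S100a7a was at 0.48 ± 0.10. Cav1, the coat protein of caveolae, stood at -5.63 and -5.03 in V-S- cells and -3.45 and -2.81 in V+S- cells, 4.61-fold higher (2.20 ± 0.12), and Anxa1, Anxa3 and Anxa5, membrane-binding annexins, rose by 2.09 ± 0.11, 2.04 ± 0.11 and 1.82 ± 0.11.

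YAP and TEAD drive genes for matrix, adhesion and cytoskeletal proteins when cells spread. All 13 named genes of the YAP target list were higher, with a median of 1.33. Axl, a receptor tyrosine kinase, stood at -3.82 and -3.66 in V-S- cells and -1.69 and -1.40 in V+S- cells and was 4.57-fold higher (2.19 ± 0.11, adjusted p = 0.00019). Tgfb2, F3 (tissue factor) and Ccdc80 rose by 1.88 ± 0.11, 1.71 ± 0.14 and 1.67 ± 0.12. Promoters were read from RefSeq (GRCm38.p6), as the 250 bases before the start of each gene. Of 1997 named genes 1611 matched by symbol and 271 by an older symbol, and 1440 had a promoter in the table. The TEAD motif GGAATG, on either strand, was present in 6 of 11 promoter windows of YAP target genes (54.5%), against 12.6% of all 32851 windows and 13.1% of the windows of named genes called higher. Other lists reached 42.9% (6 of 14 sarcomere windows, from a list with both rises and falls), 33.3% (2 of 6 leukocyte windows) and 25% (6 of 24 S100, annexin and caveolin windows and 3 of 12 interferon response windows). The list was drawn from known YAP targets, and the share describes the list. The windows of Axl and, chosen after their values were seen, Cyr61, Ankrd1 and Amotl2 are shown with the motif in capitals. Cyr61, a secreted matricellular protein, rose by 1.33 ± 0.11, Ankrd1, a nuclear ankyrin protein, by 1.26 ± 0.12, and Amotl2, an angiomotin that binds YAP, by 1.28 ± 0.13.
Axl, chr7:25788734-25788983, minus strand: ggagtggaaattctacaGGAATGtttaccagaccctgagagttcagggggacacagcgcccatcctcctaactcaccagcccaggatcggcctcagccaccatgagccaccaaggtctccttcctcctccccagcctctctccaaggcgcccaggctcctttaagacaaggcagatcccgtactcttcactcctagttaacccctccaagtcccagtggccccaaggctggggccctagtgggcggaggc
Cyr61, chr3:145649986-145650235, minus strand: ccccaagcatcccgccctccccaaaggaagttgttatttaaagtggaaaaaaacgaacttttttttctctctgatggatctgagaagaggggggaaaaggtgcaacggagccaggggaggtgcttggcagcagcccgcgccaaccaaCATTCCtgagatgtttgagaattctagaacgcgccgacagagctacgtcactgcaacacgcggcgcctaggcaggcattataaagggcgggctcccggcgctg
Ankrd1, chr19:36119845-36120094, minus strand: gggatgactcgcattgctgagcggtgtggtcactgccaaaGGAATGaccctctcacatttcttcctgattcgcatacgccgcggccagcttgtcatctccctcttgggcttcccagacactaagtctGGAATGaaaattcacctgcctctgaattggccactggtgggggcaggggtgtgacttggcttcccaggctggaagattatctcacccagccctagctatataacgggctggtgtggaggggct
Amotl2, chr9:102717554-102717803, plus strand: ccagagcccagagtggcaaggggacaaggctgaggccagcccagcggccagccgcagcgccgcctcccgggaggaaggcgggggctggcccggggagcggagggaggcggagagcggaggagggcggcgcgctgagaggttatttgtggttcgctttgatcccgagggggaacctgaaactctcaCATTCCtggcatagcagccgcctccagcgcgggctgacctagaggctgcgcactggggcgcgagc
The match began 233 bases before the start in Axl, 103 bases in Cyr61 and 65 bases in Amotl2, and Ankrd1 held matches at 210 and 123 bases.

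The CArG box, bound by SRF, was present in 5 of 34 windows of the actin and contractile list (14.7%) and in 3 of 23 of the integrin and focal adhesion list (13.0%), against 1.47% of all windows, 2.17% of those of named genes called higher and 3.50% of those called lower. It was also present in 3 of 15 epithelial junction windows (20%), 1 of 6 Rhox windows (16.7%), 2 of 14 sarcomere windows and 1 of 7 hypoxia response windows (14.3% each). The 2 windows below, of genes chosen after their values were seen, show the box in capitals. Acta1, skeletal α-actin, rose by 1.69 ± 0.13 and Myl9, a regulatory myosin light chain, by 0.96 ± 0.09, and their boxes began 73 and 161 bases before the start.
Acta1, chr8:123894776-123895025, minus strand: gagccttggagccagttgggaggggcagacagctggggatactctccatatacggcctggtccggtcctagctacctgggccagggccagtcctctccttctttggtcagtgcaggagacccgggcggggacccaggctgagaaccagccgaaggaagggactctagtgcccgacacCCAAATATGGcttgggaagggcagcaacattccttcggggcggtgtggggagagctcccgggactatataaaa
Myl9, chr2:156775214-156775463, plus strand: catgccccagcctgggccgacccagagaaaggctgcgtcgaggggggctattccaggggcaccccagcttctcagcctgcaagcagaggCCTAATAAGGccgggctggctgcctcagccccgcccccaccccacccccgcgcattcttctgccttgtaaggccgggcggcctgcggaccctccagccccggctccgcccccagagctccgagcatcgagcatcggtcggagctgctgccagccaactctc
The AP-1 motif TGANTCA was present in 6.70% of the windows of genes called higher, 4.90% of those called lower and 6.75% of all windows.

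Signalling genes rose in several pathways. All 18 named TGF-β pathway genes were higher, with a median of 1.38. Among the ligands and their carriers, Ltbp1, which holds latent TGF-β in the matrix, stood at -2.74 and -2.44 in V-S- cells and -0.71 and -0.20 in V+S- cells and rose by 2.14 ± 0.11 (adjusted p = 0.00019). The ligand Tgfb2 rose by 1.88 ± 0.11 and Inhba, a subunit of activin, by 1.600 ± 0.09, and Bmp1, a protease that frees matrix and growth factors, by 1.62 ± 0.09. Of 20 genes of the FGF, EGF and ERK response, 17 rose, 2 fell and 1 did not pass, with a median of 0.92. Egfr, the EGF receptor, stood at -2.44 and -1.83 in V-S- cells and -0.38 and 0.17 in V+S- cells and was 4.09-fold higher (2.03 ± 0.12, adjusted p = 0.0002). Fosl2, an AP-1 factor, Dusp5, an ERK phosphatase, and Phlda1 rose by 1.86 ± 0.15, 1.601 ± 0.11 and 1.46 ± 0.08. Fgf15, a ligand, and Etv5, an ETS factor induced by FGF, fell by 0.68 ± 0.09 and 0.68 ± 0.09, and Junb was at 0.46 ± 0.07. Of 14 genes of the p53 and apoptosis list 13 rose, led by Plk2 (1.67 ± 0.14) and the death receptor Fas (1.58 ± 0.10), and Trp53inp1 was at 0.56 ± 0.08. Of 15 NF-κB and TNF genes 13 rose, led by Tnfaip3 (A20), an inhibitor of the pathway (1.64 ± 0.12), Sod2 fell by 0.71 ± 0.16 (a call lost in 5 of 20 alternatives) and Rela was at 0.55 ± 0.08.

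Pericellular proteases and their inhibitors rose in 22 of 24 cases, with a median of 1.19. Prss23, a secreted serine protease, stood at -2.19 and -1.87 in V-S- cells and 0.18 and 0.31 in V+S- cells, 4.84-fold higher (2.28 ± 0.15). The metalloproteases Adamts12, Adamts4 and Mmp14 rose by 1.92 ± 0.16, 1.91 ± 0.10 and 1.76 ± 0.08, while Adam10 and Adamts1 were at 0.56 ± 0.09 and 0.41 ± 0.07 and did not pass. Adam10 passed in 7 of 20 alternatives (0.49 to 0.99) and Adamts1 in 2 (0.34 to 1.395). Of 13 lysosomal genes 10 rose, with Mcoln3 (1.56 ± 0.10), Ctsl, a cathepsin (1.27 ± 0.07), and Naglu (1.22 ± 0.09) the furthest. Acp5 fell by 0.67 ± 0.07, and Ctsc and Psap were at 0.54 ± 0.10 and -0.24 ± 0.16. The sign of Psap turned with median centring, to 0.02, and Ctsc ranged from 0.008 to 1.37 over 20 alternatives and passed in 3. Of 8 hypoxia response genes 7 rose, among them Ddit4 (1.11 ± 0.12) and Pfkfb3 (1.098 ± 0.11), and Ak3l1 fell by 0.95 ± 0.11. Of 14 axon guidance genes 11 rose, led by Efna5, an ephrin (1.67 ± 0.07), and Sema4c, a semaphorin (1.46 ± 0.11); Sema4b fell by 0.69 ± 0.11.

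Some genes of DNA replication, ribosome biogenesis and one-carbon metabolism fell, and most members of these lists did not pass the test. Of 20 DNA replication genes, 9 fell, 0 rose and 11 did not pass, with a median of -0.55 and a range of -0.78 to -0.29. All 20 were lower in both clones, a share not taken over all probes, and named genes were selected on these samples. Ccne1 (cyclin E1) fell by 0.78 ± 0.07 (adjusted p = 0.00044), with log2 ratios of 1.63 and 1.64 in V-S- cells and 0.80 and 0.90 in V+S- cells. Uhrf1, which keeps DNA methylation through replication, and Mcm10 and Mcm2, of the replication fork, fell by 0.73 ± 0.07, 0.73 ± 0.07 and 0.69 ± 0.08. Of 19 ribosome biogenesis genes, 7 fell and 12 did not pass, with a median of -0.54. Srm stood at 0.70 and 0.66 in V-S- cells and -0.21 and -0.30 in V+S- cells and fell by 0.94 ± 0.12, and Ncl (nucleolin) by 0.91 ± 0.14. Srm is spermidine synthase, an enzyme of polyamine synthesis that the list includes, so its fall is not that of a ribosome factor. Of 12 one-carbon and purine genes 5 fell. Tdh, the threonine dehydrogenase on which mouse ES cells depend, stood at 0.95 and 1.32 in V-S- cells and 0.21 and -0.19 in V+S- cells and fell by 1.12 ± 0.32 (adjusted p = 0.03), a call lost in 8 of 20 alternatives. Shmt1 fell by 0.91 ± 0.10. With median centring 0 of the 20 replication genes, 2 of the 19 members of the ribosome list and 1 of the 12 one-carbon genes passed the test. Those of the ribosome list were Srm and Ncl, and the one-carbon gene was Shmt1.

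All 9 named Rhox genes, homeobox genes clustered on the X chromosome, were lower, with a median of -0.77; near-identical copies in the cluster can bind each other's probes, so that members cannot be taken as separate measurements. Rhox5 stood at 1.48 and 1.17 in V-S- cells and 0.29 and -0.61 in V+S- cells and was 2.81-fold lower (-1.49 ± 0.20, adjusted p = 0.0017), the largest fall among named probes. Rhox4d and Rhox2a fell by 1.13 ± 0.08 and 1.12 ± 0.14. Of 14 germline genes 8 fell and 2 rose. Tdrd12, a tudor protein of the piRNA pathway, fell by 1.17 ± 0.20, Tex19 by 1.03 ± 0.19 and Kit, the receptor of germ cells, by 0.97 ± 0.23, while Tdrd7 rose by 1.49 ± 0.09 and Spo11 by 0.71 ± 0.07. The call of Tex19 was lost in 3 and that of Kit in 5 of 20 alternatives. The 4 genes of the 2-cell stage, which mark a small and transient share of ES cells, differed between clones. Zscan4c stood at 0.08 and 0.95 in V-S- cells and -0.19 and -0.87 in V+S- cells, and Tcstv3 at 1.90 and 2.37 in V-S- cells and 1.51 and 0.64 in V+S- cells. Their log2 differences were -0.27 in clone 5.1 and -1.81 in clone 16.1 for Zscan4c and -0.38 in clone 5.1 and -1.73 in clone 16.1 for Tcstv3. With Tcstv1 (-0.92 ± 0.36) and Tdpoz5 (-0.30 ± 0.09) none of the 4 passed the test, and the list median was -0.24 in clone 5.1 and -1.68 in clone 16.1.

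Other lists moved in both directions. Of 17 interferon response genes 5 rose and 6 fell. Ifi202b, B2m and Irf2 rose by 1.85 ± 0.12, 1.46 ± 0.09 and 1.38 ± 0.08, and Oas1a, an oligoadenylate synthetase, fell by 1.13 ± 0.17. The genes of the Oas1 family are near copies of each other. Of 15 sarcomere genes 7 rose and 6 fell, from Tnnc1 at 1.20 ± 0.12 to Mylpf at -1.101 ± 0.28, whose call was lost in 6 of 20 alternatives.

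Markers of other cell types were read in the same samples. All 10 named fibroblast genes rose (median 1.47), with a mean log2 ratio of -4.24 and -4.06 in V-S- cells and -2.91 and -2.34 in V+S- cells. Of 6 trophectoderm genes 5 rose, namely Krt7, Krt8, Krt18, Plac1 and Gata3, and Tcfap2c fell by 1.02 ± 0.17; their mean was -0.17 and -0.22 against 0.94 and 0.72. All 6 endothelial genes rose (mean -1.81 and -1.66 against -0.76 and -0.54), led by Flt1 (1.87 ± 0.15). Of 13 neuroectoderm genes 5 rose and 4 fell (mean -0.66 and -0.46 against -0.29 and -0.18), with Fabp7 at 1.96 ± 0.15, En1 at 1.65 ± 0.11, Dlx2 at 1.56 ± 0.07 and Sox11 at 1.503 ± 0.10. The 4 that fell were En2 (-0.78 ± 0.18), Crabp1 (-0.77 ± 0.14), Tubb3 (-0.73 ± 0.10) and Hes5 (-0.66 ± 0.10), with calls lost in 5, 3, 2 and 4 of 20 alternatives. Of 4 mesoderm genes Foxc1 rose by 1.96 ± 0.12 and Tbx15 by 1.14 ± 0.12, and Gsc and Wnt3a were at -0.50 ± 0.13 and -0.58 ± 0.10 (mean -1.34 and -1.13 against -0.82 and -0.64). Of 8 leukocyte genes 6 fell and 1 rose (mean -1.37 and -1.33 against -1.78 and -1.88). Every member of these lists was well above background in at least 1 file of each fraction. Some probes were still dim, as for Dlx1 with mean log2 Cy3 levels of 6.78 in V-S- and 6.98 in V+S- cells. Several matrix genes are members of the fibroblast or PrEn list too, and the part of other cell types in the results was not tested.

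The 12 largest rises among named probes were Pcdh18, Itga11, Thbs1, Prss23, Igfbp5, Cav1, Axl, Ltbp1, Anxa1, Lrrc8c, Postn and Anxa3. Pcdh18, a protocadherin, stood at -2.59 and -1.89 in V-S- cells and -0.34 and 0.53 in V+S- cells, and was 5.05-fold higher (2.34 ± 0.14, adjusted p = 0.0002). Igfbp5, which binds insulin-like growth factors, stood at -1.94 and -1.75 in V-S- cells and -0.03 and 0.88 in V+S- cells and rose by 2.27 ± 0.20. The chloride channel subunit Lrrc8c rose by 2.07 ± 0.12. Of the 12 largest falls, Rhox5, Calcoco2, Spic, Dppa3, Ccno, AF067061, EG666272, Nfatc2ip, Zfp371, Aqp3, LOC233184 and 1700013H16Rik, the ETS factor Spic stood at 0.55 and 0.73 in V-S- cells and -0.79 and -0.77 in V+S- cells and fell by 1.41 ± 0.16 (adjusted p = 0.00085). Calcoco2, an autophagy receptor, fell by 1.42 ± 0.30 and Aqp3, a water and glycerol channel, by 1.22 ± 0.26. Both fell further in clone 16.1, with -0.96 in clone 5.1 and -1.88 in clone 16.1 for Calcoco2 and -0.84 in clone 5.1 and -1.61 in clone 16.1 for Aqp3. The cyclin Ccno fell by 1.33 ± 0.16, with -1.22 in clone 5.1 and -1.44 in clone 16.1. Of 20 alternatives, AF067061 lost its call in 7, with differences of -0.61 in clone 5.1 and -1.95 in clone 16.1, Zfp371 in 6, Calcoco2 and Aqp3 in 4 each, Nfatc2ip in 3, LOC233184 in 2, and Rhox5, Dppa3 and EG666272 in 1 each. With V+S- of clone 16.1 left out the differences of AF067061, Zfp371, Calcoco2 and Aqp3 were -0.71, -0.91, -1.11 and -0.99, and with V-S- of that clone left out -0.95, -0.92, -1.12 and -0.95, none of them called. A further 1523 probes called higher and 637 called lower could not be named. The largest rises among them were of probe Z00010007-1 (2.25 ± 0.11) and probe Z00074362-1 (2.22 ± 0.13), and the largest falls of probe Z00075508-1 (-1.37 ± 0.32) and probe Z00051117-1 (-1.36 ± 0.32), whose calls were lost in 5 of 19 and 6 of 20 alternatives.

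The Venus difference of the SSEA-1-positive cells, V+S+ against V-S+, came from other arrays of the same clones, with 1141 probes higher (3.87%) and 515 lower (1.75%). The probes called higher in V+S- had a median log2 difference of 0.49 there, and those called lower had -0.56, where the median of all probes was 0.01. Read the other way, the probes called higher in V+S+ had a median of 1.03 in the SSEA-1-negative cells and those called lower -0.78, against 0.01 over all probes. Of the probes called higher in SSEA-1-negative cells 981 were also called higher in SSEA-1-positive cells (37.1% of the first list and 86.0% of the second), and of those called lower 404 were shared (41.2% and 78.4%). None was called in opposite directions. For Id1 the difference was 0.85 ± 0.10 in SSEA-1-positive cells and 0.86 ± 0.10 in SSEA-1-negative cells, and for Dppa3 -1.37 ± 0.18 and -1.41 ± 0.18. The differences between these pairs were 0.01 ± 0.13 (adjusted p = 0.98) and -0.04 ± 0.26 (adjusted p = 0.96). Nanog was at -0.72 ± 0.15 with SSEA-1. Pou5f1 was at 0.22 ± 0.17 (adjusted p = 0.38) with SSEA-1, against -0.74 ± 0.17 without it, and the difference of -0.96 ± 0.24 did not pass (adjusted p = 0.11). Gata6 was at 0.17 ± 0.11 with SSEA-1 (difference 0.59 ± 0.15, adjusted p = 0.12) and Dab2 at 0.47 ± 0.11 (difference 0.51 ± 0.16, adjusted p = 0.16).

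**Figure D4:**
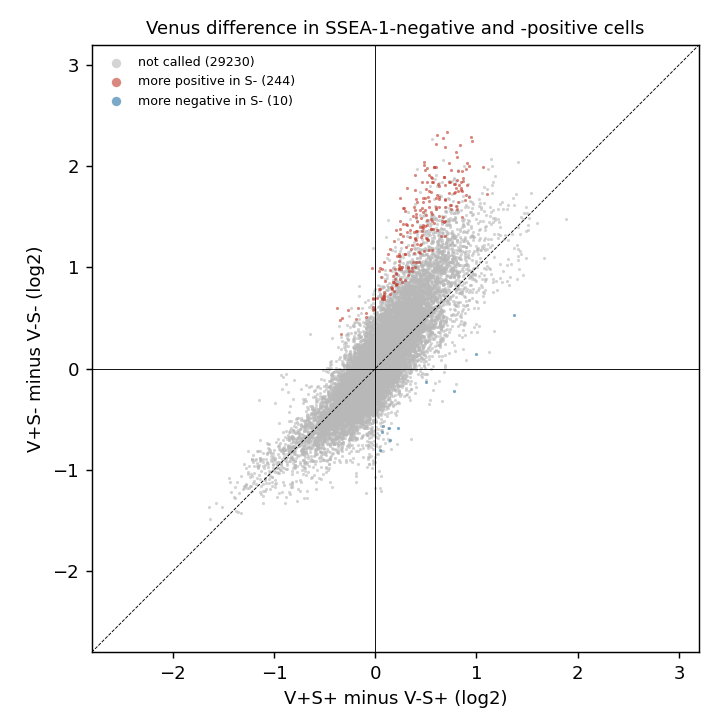
Each point is 1 of 29484 probes, with its Venus difference in SSEA-1-positive cells (x axis) and in SSEA-1-negative cells (y axis), both log2 and over 2 clones. Red marks 244 probes whose signed difference was more positive and blue 10 whose signed difference was more negative in SSEA-1-negative cells; the dashed line is equality.

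Tested directly, the signed Venus difference was more positive in SSEA-1-negative than in SSEA-1-positive cells for 244 probes (0.828%) and more negative for 10 (0.0339%). Of the 244, 236 were among the rises, and of the 10, 5 were among the falls. One of these was Tdgf1, at 0.06 ± 0.07 with SSEA-1 and -0.63 ± 0.07 without it (difference -0.69 ± 0.09, adjusted p = 0.038). Itga11 differed by 1.69 ± 0.14, from 0.61 ± 0.10 with SSEA-1 to 2.30 ± 0.10 without it. Pcdh18, Prss23 and Postn differed by 1.63 ± 0.20, 1.61 ± 0.21 and 1.56 ± 0.17 (adjusted p = 0.036 for each of the 4). Sox7 was at 0.40 ± 0.14 with SSEA-1 and 1.76 ± 0.14 without it, a difference of 1.37 ± 0.19 (adjusted p = 0.042). In the other direction BC017612, Slc27a2, Spon1 and LOC668932 differed by -1.01 ± 0.11, -0.86 ± 0.13, -0.84 ± 0.10 and -0.81 ± 0.08. Spon1, an extracellular matrix protein, was at 1.37 ± 0.07 with SSEA-1 and 0.53 ± 0.07 without it, and Slc27a2, a fatty acid transporter, at 1.00 ± 0.09 and 0.14 ± 0.09. LOC668932 was at 0.22 ± 0.06 with SSEA-1 and fell by 0.59 ± 0.06 without it, a fall whose call was lost in 5 of 20 alternatives. The smallest adjusted p was 0.036, with 5776 probes at an unadjusted p under 0.05, and the calls were fragile. With limma, 0 probes were called in either direction on scanner-processed signals, Cy3 without the reference, the authors' values, no block or no moderation (between 2340 and 5927 probes at an unadjusted p under 0.05). Leaving out 1 sample left 0 more positive and 0 more negative for 6 of the 8 samples, 1 and 0 without V-S+ of clone 16.1, and 738 and 78 without V+S+ of clone 16.1. The direction held in all 19 alternatives run for the 8 named genes with the largest differences, 4 each way, with Itga11 between 1.54 and 1.91. Tdgf1 and Sox7 were not among these 8. Of the 1997 named probes 163 had a more positive difference without SSEA-1 (8.16%) and 5 a more negative one (0.250%). By list the former were 8 of 24 protease genes, 7 of 27 matrix genes, 7 of 20 S100, annexin and caveolin genes, 5 of 18 TGF-β genes, 4 of 13 YAP target genes, 4 of 13 keratin and intermediate filament genes, 4 of 10 fibroblast genes and 3 of 6 trophectoderm genes, and also 4 of 28 actin and contractile genes, 3 of 22 integrin and focal adhesion genes, 3 of 20 FGF, EGF and ERK response genes and 3 of 17 interferon response genes. Each of the other lists had 2 such genes at most, and the pluripotency, 2-cell-stage, Rhox, DNA replication, ribosome biogenesis, one-carbon, hypoxia and leukocyte lists had 0.

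**Figure D5:**
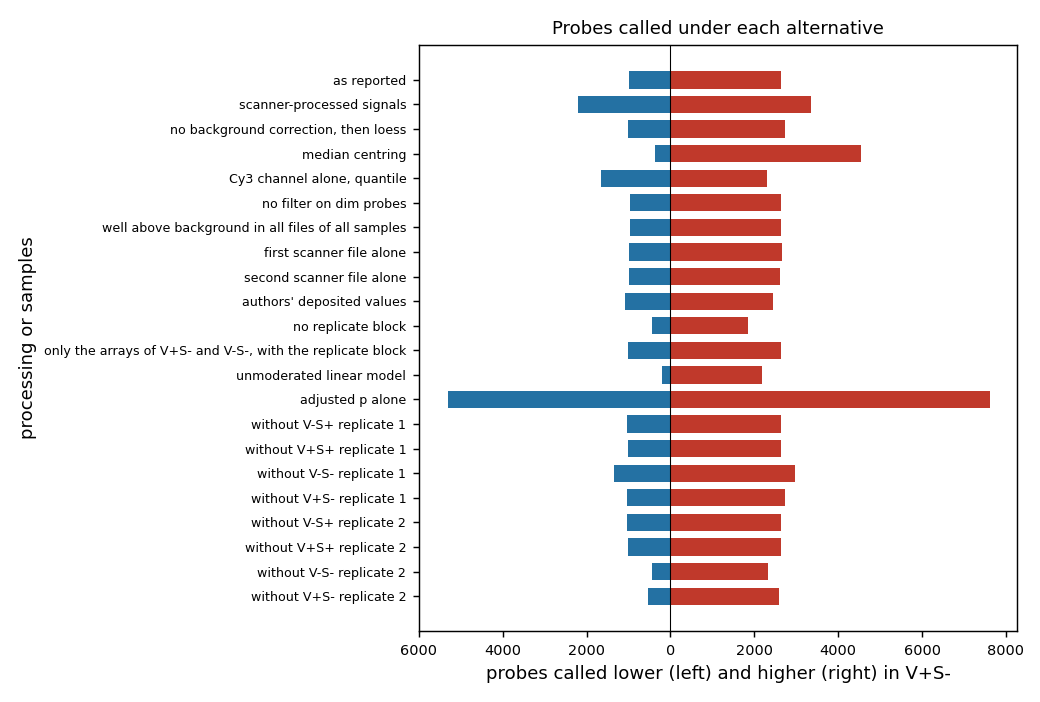
Probes called lower (left, blue) and higher (right, red) in V+S- against V-S- cells under each alternative and with each sample left out (y axis); the x axis counts probes. Rises number between 1858 and 7621 and falls between 208 and 5306 over all the settings drawn.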

How the data were processed

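RNA of sorted fractions of HV ES cells was measured on 2-colour arrays, each sample in Cy3 and a common reference in Cy5, with no dye swap. The authors deposited spot intensity values, not normalized, in 2 repeat scans per array (Agilent Feature Extraction 9.5.1.1), and their own log10 values (25164 probes). Their gene lists gave symbols only; columns of their own comparisons were not used. Mean signals were corrected with normexp (offset of 50), normalized by loess and averaged over the 2 scans with limma 3.58.1 (R 4.3.3), as log2 ratios; spots marked as outliers were left out. Probes were tested if every file of some fraction had them well above background (29484 of 29495, since 11 lacked a value). All 8 samples entered lmFit and eBayes with clone as a block, adjusted by Benjamini-Hochberg over all probes. Clone pairs the samples, since both come from one cell line; deviations of a clone correlated between fractions with r from 0.588 to 0.811. Members, lists and tests were chosen with earlier results of these data known. Genes named are the 12 largest rises and falls, genes the study names, and the largest members and exceptions of each list (others mostly counted). The 4 largest differences between SSEA-1 classes each way and 2 unnamed probes each way are also given. The scripts were tested on simulated data. Alternatives covered background correction, scaling, filters, scans, block, moderation, threshold and each sample left out. Array number, 2 per fraction, limits the precision.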

Additional observations from a re-analysis of the deposited data

Results flagged for a closer look

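The signed Venus difference was more positive in SSEA-1-negative than in SSEA-1-positive cells for 244 probes and more negative for 10, by the test of the difference itself; 5 of the 10 were called lower without SSEA-1. The named genes with the largest of these were Itga11 (1.69 on the log2 scale), Pcdh18 (1.63), Prss23 (1.61) and Postn (1.56). In the other direction they were BC017612 (-1.01), Slc27a2 (-0.86), Spon1 (-0.84) and LOC668932 (-0.81). The sign turned between the SSEA-1 classes for BC017612, at 0.78 with SSEA-1 and -0.22 without it, where the latter was not called, and for LOC668932, at 0.22 with SSEA-1, not called, and -0.59 without it, called lower. Groups of 2 samples are too small to look for single outlying samples.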

How the results depend on the processing

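The direction of 234 named genes, here counted with the unnamed probes given above, held in all alternatives run. The exception was Psap, which turned from -0.24 to 0.017 with median centring. Rises numbered 4542 with median centring and 7621 by adjusted p alone, and in the other settings stayed within 1.5 times of 2642. Falls numbered 2197 with scanner-processed signals, 1666 with the Cy3 channel alone, 370 with median centring, 440 with no replicate block, 208 in the unmoderated model and 5306 by adjusted p alone. Probes with a more positive Venus difference without SSEA-1 numbered 2249 with median centring, and 0 with scanner-processed signals, the Cy3 channel alone, the authors' deposited values, no replicate block or the unmoderated model; those with a more negative difference also numbered 0 in these 5. With 1 sample left out, falls ranged from 437 to 1343, more positive differences from 0 to 738 and more negative ones from 0 to 78; a fraction left with 1 sample was assumed to vary like the others. With no replicate block the rises numbered 1858, all among the 2642. Calls lost among the named genes numbered 40 in the unmoderated model, 30 with median centring, 15 with no replicate block, 14 with the authors' deposited values and 56 in total over the 8 fits with 1 sample left out, and at most 4 in any other setting. Of the genes given above as not passing, Afp, Adam10 and Wnt3a passed in 7 of 20 alternatives, Zscan4c in 5, Prss8 and Tcstv1 in 4 and the others in 3 at most. Among rises, Spo11 ranged from 0.63 to 1.64, Irf2 from 1.28 to 2.34 and Dlx2 from 1.48 to 2.43, called throughout. Others called throughout also moved, among them Postn (1.86 to 2.93), Ifi202b (1.68 to 2.65), Adamts12 (1.71 to 2.69), Fabp7 (1.80 to 2.64) and Sox7 (1.61 to 2.43). Among falls, Fgf15 ranged from -1.17 to -0.55 and lost its call in 2 alternatives, as did Sema4b and Tcfap2c. The cause of these shifts was not tested. The signal over background, a median of 2.36 to 2.87 per sample, limits what dim probes show.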

Other observations

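The probes called higher had a median GC content of 41.7%, against 45.0% for all probes tested and 45.0% for those called lower. The median of 250-base promoter windows held 14 CG dinucleotides for named genes called higher, 10 for those called lower, 13 for named genes not called and 6 over all windows. The median log2 difference of the pluripotency list was -0.54 in clone 5.1 and -0.95 in clone 16.1, and that of the germline list -0.40 and -0.78, whereas for DNA replication it was -0.56 and -0.59 and for the Rhox genes -0.82 and -0.77.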
